A study of Homo sapiens with 6 samples.

Results

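Transcripts of TGF-beta and BMP signalling were followed in TFK1 cells, a human cholangiocarcinoma line derived from the extrahepatic bile duct. The genes were chosen by symbol as 50 ligands, latency and processing factors, receptors, SMADs, ubiquitin ligases and corepressors, antagonists and early targets, and all 50 were among the 23569 genes of the deposited table. RNA-seq had been made from 3 libraries of cells stably transduced with a control lentivirus (oeNC) and 3 libraries of cells stably transduced to overexpress STUB1 (oeSTUB1), a ubiquitin ligase and co-chaperone. Both groups had been selected with puromycin and neither carried a further treatment. The sources do not say whether the 3 libraries of a group came from separate cultures or transductions, so p-values measure the spread between these libraries, and differences between the transduced populations cannot be told apart from the effect of STUB1. Values are FPKM, fragments scaled to gene length and to the total of the library, and wherever 3 values are listed they stand for replicates 1, 2 and 3.

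TGF-beta family ligands are secreted dimers that bring together type I and type II receptor kinases at the cell surface. The TGF-beta and activin branch signals through SMAD2 and SMAD3, the BMP branch through SMAD1, SMAD5 and SMAD9, and both share SMAD4. Soluble antagonists such as follistatin and noggin hold ligands away from their receptors, latent binding proteins store TGF-beta in the matrix, and inhibitory SMADs and SMURF ligases dampen the signal inside the cell. In epithelial cells the TGF-beta branch is known for growth arrest and for induction of mesenchymal and matrix genes, and the BMP branch for induction of the ID genes.

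The table was checked against its labels first. STUB1 had 32.9, 33 and 30.9 FPKM in the control libraries and 61.4, 75 and 61.9 FPKM in the overexpressing ones, a log2 fold change of 1.03 (SE 0.10, adjusted p = 0.00064, limma). Depth was similar, with 33106564 to 36744521 fragments per library. One library stood apart: relative to the other 2 libraries of its group, oeSTUB1 replicate 2 had a median log2 difference of 0.33 in the length quartile of the shortest genes and of -0.34 in that of the longest, where the other 5 libraries stayed between -0.19 and 0.19. Of the biliary epithelial markers, KRT7, KRT8 and KRT18 were abundant in every library. KRT7 had a mean of 502 FPKM in oeNC and 704 FPKM in oeSTUB1 and did not pass (adjusted p = 0.082, limma). KRT19, a defining keratin of bile duct cells, was at most 0.529 FPKM in oeNC and 2.51 to 3.41 FPKM in oeSTUB1. The 6 biliary markers summed to 7357 to 7935 FPKM in oeNC and 4693 to 6241 FPKM in oeSTUB1, with 1 higher (KRT19) and 3 lower (KRT8, KRT18 and EPCAM). Fibroblast markers summed to 1.31 to 2.36 FPKM and 2.16 to 4.05 FPKM, with 2 of 8 tested, neither of them called, and DCN at 0 in all oeNC libraries. Endothelial markers stayed at or below a sum of 0.231 FPKM, with 1 of 4 tested and not called. Leukocyte markers summed to 31.5 to 33.2 FPKM in oeNC and 24 to 25.3 FPKM in oeSTUB1, most of it CD68, the 1 that was lower among 3 of 4 tested. Hepatocyte markers summed to 10.3 to 11.4 FPKM and 4.36 to 5.99 FPKM, most of it HNF4A, which was the only 1 of 4 tested and was lower. The part of these marker differences and of oeSTUB1 replicate 2 in the results was not tested, and calls are given with and without single libraries.

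STUB1 was studied together with UHRF1 and DNMT1, which copy methylation of CpG dinucleotides onto newly made DNA, so the CpG content of the promoters gives context for genes that changed. No methylation was analysed here. The bases before the transcription start of 4 ligand genes that the results turn on, 3 that fell and 1 that rose, are printed 5′ to 3′ on the strand of the gene with each CpG in capitals (RefSeq, build GRCh38.p14). INHBA lies on the minus strand, and the bases shown, chr7:41703109-41703340, hold 1 CpG. TGFB2 lies on the plus strand with 11 CpG in chr1:218345086-218345335, where GENCODE release 29 also places an exon of the antisense gene TGFB2-AS1. BMP4 lies on the minus strand with 25 CpG in chr14:53955051-53955300, and INHBB on the plus strand with 46 CpG in chr2:120345886-120346135.
INHBA: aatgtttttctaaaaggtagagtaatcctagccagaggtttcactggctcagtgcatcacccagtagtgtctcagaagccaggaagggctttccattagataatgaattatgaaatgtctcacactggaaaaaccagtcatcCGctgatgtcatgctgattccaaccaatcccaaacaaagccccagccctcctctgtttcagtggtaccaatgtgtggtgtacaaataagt
TGFB2: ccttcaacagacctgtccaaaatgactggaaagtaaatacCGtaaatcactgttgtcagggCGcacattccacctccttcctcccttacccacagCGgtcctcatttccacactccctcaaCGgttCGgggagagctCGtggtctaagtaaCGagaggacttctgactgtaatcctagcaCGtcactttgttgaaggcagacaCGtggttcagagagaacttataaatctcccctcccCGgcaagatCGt
BMP4: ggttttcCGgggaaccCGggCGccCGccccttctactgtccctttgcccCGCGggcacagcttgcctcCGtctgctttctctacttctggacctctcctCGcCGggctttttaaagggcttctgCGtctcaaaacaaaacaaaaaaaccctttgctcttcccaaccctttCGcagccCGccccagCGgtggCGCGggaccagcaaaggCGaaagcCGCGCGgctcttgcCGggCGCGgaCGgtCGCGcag
INHBB: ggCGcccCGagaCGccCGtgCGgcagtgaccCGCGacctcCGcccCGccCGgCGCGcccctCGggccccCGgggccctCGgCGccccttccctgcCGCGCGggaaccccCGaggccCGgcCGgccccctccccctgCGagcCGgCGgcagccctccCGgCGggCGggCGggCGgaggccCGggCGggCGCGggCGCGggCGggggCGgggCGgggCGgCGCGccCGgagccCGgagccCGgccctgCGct
The 3 printed ligand genes that fell had promoters of very different CpG content, and the window of BMP6, which also fell, held 26 CpG. Over the 250 bases before the start, INHBA held the fewest CpG of the 43 tested members found in the table, whose counts ran from 1 to 48 with a median of 24. The median over 11980 tested genes with a promoter was 21. The members found there that rose had a median of 20 CpG (n = 5) and those that fell a median of 27.5 (n = 8). Several of these windows hold untranslated exon bases in GENCODE release 29, 250 for FSTL1 and LTBP4, 220 for FST and 202 for ID2. The windows of INHBA and BMP4 lie inside the genes as GENCODE places them, which reach upstream to 41705834 and 53958761. The counts thus describe the windows before the RefSeq starts only. BMP7 was not found in the table.

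Across the 49 members tested, 15 (30.6%) differed between oeSTUB1 and oeNC at an adjusted p under 0.05 (limma on log2(FPKM + 0.1), adjusted over all genes), where 13.6% of all 15353 genes tested did. The members were chosen with earlier results of these data known, so this share is a description and not a test of the list. TGFB2, FST, TGFBI, FSTL1, BMP1 and SMAD1 were higher in oeSTUB1, and INHBA, BMP7, ID4, ID2, BMP4, INHBB, BMP6, ACVR1B and LTBP4 were lower. The backgrounds by direction were 7.01% higher and 6.59% lower. The count of 15 members became 19 without oeSTUB1 replicate 2, 13 without oeSTUB1 replicate 3, 9 without oeNC replicate 1 and 8 without oeNC replicate 2, oeNC replicate 3 or oeSTUB1 replicate 1, while the count over all genes moved from 2088 to between 927 and 4118. By role, 6 of 12 ligands, 2 of 5 latency and processing factors, 2 of 5 antagonists and 3 of 5 targets passed, as did 1 of 10 receptors, 1 of 7 SMADs and 0 of 5 ubiquitin ligases and corepressors, and the roles were not tested against each other. Of these 5 ligases and corepressors, 1, SMURF2, had an unadjusted p under 0.05 in limma, and of the 16 alternatives with a test, limma-voom among them, the length correction and the fit without oeSTUB1 replicate 2 called SMURF2 and the others called 0. A log2 fold change beyond 1 in size as well was reached by 4 members, INHBA, BMP7, TGFB2 and FST, where 5.20% of all genes did so, and by BMP7 alone with a pseudocount of 1. The median log2 fold change was -0.06 over the members and 0.02 over all genes. All 3 libraries of one group lay above all 3 of the other in 24 of the 49 members tested, 10 higher and 14 lower in oeSTUB1, and in 38.8% of all genes tested (21.5% higher and 17.3% lower). GREM1, an antagonist of BMPs, was below the filter on low values, with 3, 1 and 3 fragments in oeNC and 5, 15 and 11 in oeSTUB1.

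**Figure D1:**
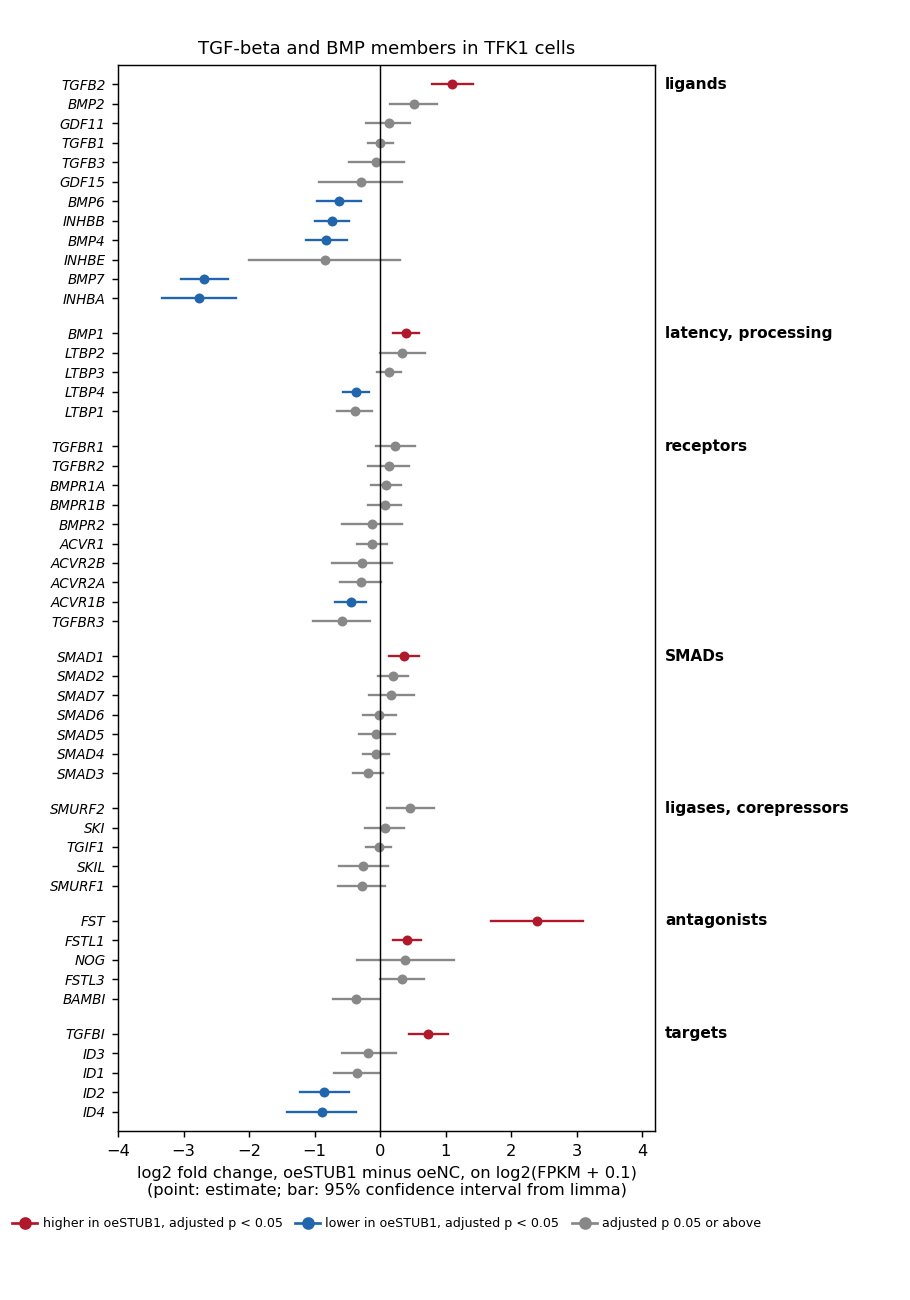
Log2 fold change (oeSTUB1 minus oeNC, on log2(FPKM + 0.1)) of the 49 tested members, grouped by role, with 95% confidence intervals from limma and colours for adjusted p under 0.05. The intervals of INHBA and BMP7 lie furthest to the left, at -2.77 and -2.69, and that of FST furthest to the right, at 2.39, while most receptors, SMADs and corepressors lie near 0.

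The activin subunit genes INHBA and INHBB fell and the antagonist gene FST rose, while INHBE and FSTL3 did not pass the test. INHBA, which encodes the subunit of activin A and lies on chromosome 7, was at 0.767, 0.975 and 0.755 FPKM in oeNC and at 0.0286, 0.0112 and 0.0758 FPKM in oeSTUB1. These values rest on 216, 274 and 225 fragments against 8, 3 and 21. The lowest oeNC library was thus far above the highest oeSTUB1 library. The oeSTUB1 mean of 0.0385 FPKM was under the filter of 0.1 FPKM, so INHBA entered the test through its oeNC values alone. INHBA fell with a log2 fold change of -2.77 (SE 0.24, adjusted p = 0.00046, limma), and because the pseudocount weighs on such low values, the log2 ratio of the group means was -4.43, a level 21.6-fold lower.

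INHBB, the subunit of activin B, was the more abundant of both subunit genes, with 22.3, 22.9 and 26 FPKM in oeNC and 12.6, 13.9 and 16.3 FPKM in oeSTUB1. The groups did not overlap, and INHBB fell by 0.74 on the log2 scale (SE 0.11, adjusted p = 0.0053, limma). INHBA made up 3.41% ± 0.629 of the summed FPKM of both genes in oeNC and 0.256% ± 0.193 in oeSTUB1 (SD, n = 3 each). INHBE, a further inhibin beta subunit gene, was at 0.258, 0.106 and 0.354 FPKM against 0.271, 0.0368 and 0.0119 FPKM, and its groups overlapped (adjusted p = 0.3, limma).

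FST encodes follistatin, the secreted protein that binds activins and keeps them from their receptors. It was at 0.0915, 0.0306 and 0.0648 FPKM in oeNC and at 0.715, 1.13 and 0.496 FPKM in oeSTUB1, from 12, 4 and 9 fragments against 93, 141 and 64. Every oeSTUB1 library exceeded every oeNC library. The oeNC mean of 0.0623 FPKM was under the filter of 0.1 FPKM, so FST entered the test through its oeSTUB1 values alone. FST rose with a log2 fold change of 2.39 (SE 0.30, adjusted p = 0.0023, limma), and the log2 ratio of its group means was 3.64, a level 12.5-fold higher. Its gene lies on chromosome 5.

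The ligand genes BMP4, BMP6 and BMP7 fell in oeSTUB1. BMP7 was at 4.92, 4.72 and 5.22 FPKM in oeNC and at 0.751, 0.533 and 0.793 FPKM in oeSTUB1. It was 7.15-fold lower by group means, with a log2 fold change of -2.69 (SE 0.15, adjusted p = 8.9e-05, limma), and the spread within each group was small beside this gap. The gene lies on chromosome 20 and its product, like BMP6, belongs to the BMP subgroup that signals mainly through type I receptors of the ACVR1 kind.

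BMP4, the most abundant BMP ligand gene among the members, was at 17.1, 18.5 and 21.9 FPKM in oeNC and at 8.96, 11.7 and 11.8 FPKM in oeSTUB1. It fell by 0.83 on the log2 scale (SE 0.14, adjusted p = 0.0074, limma), without overlap of the groups. BMP6, known in the liver as the ligand that drives hepcidin, was at 4.04, 4.75 and 5.42 FPKM against 2.85, 2.74 and 3.49 FPKM. BMP6 fell by 0.63 on the log2 scale (SE 0.14, adjusted p = 0.027, limma), but the call was lost without oeNC replicate 2 (adjusted p = 0.1), without oeNC replicate 3 (0.099), without oeSTUB1 replicate 1 (0.076) and with no filter on low values. For BMP2, a ligand close to BMP4 in sequence, all oeSTUB1 values (1.55, 1.36 and 1.18 FPKM) exceeded the oeNC values (0.805, 0.977 and 0.99 FPKM), with a log2 fold change of 0.51 that did not pass (SE 0.15, adjusted p = 0.068, limma).

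Summed over BMP2, BMP4, BMP6 and BMP7, the ligand level was 26.9, 29 and 33.6 FPKM in oeNC and 14.1, 16.3 and 17.3 FPKM in oeSTUB1. Within the sum the share of BMP7 was 16.7% ± 1.41 in oeNC and 4.39% ± 1.04 in oeSTUB1 (SD, n = 3 each). BMP4 supplied the largest share in both groups, 64.3% ± 0.882 and 67.8% ± 4.06, and these shares overlapped. As in any bulk sample, fewer cells expressing a ligand and less RNA per cell cannot be told apart.

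**Figure D2:**
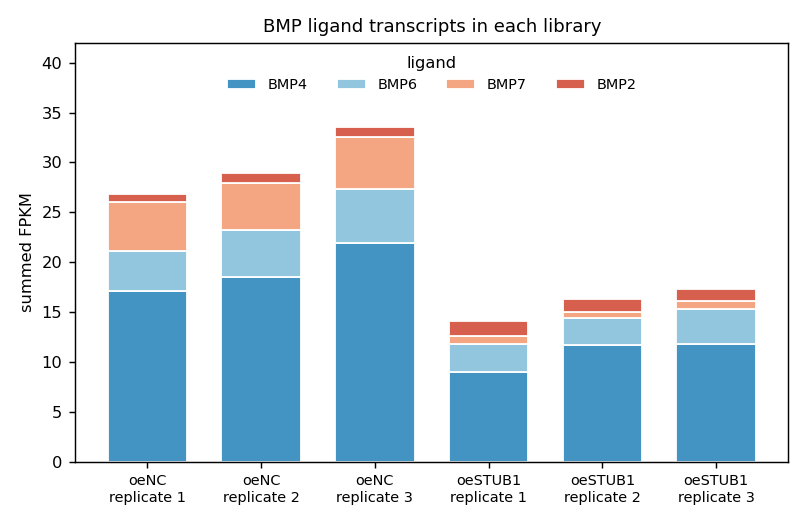
Summed FPKM of BMP4, BMP6, BMP7 and BMP2 in each of the 6 libraries, stacked by ligand, with the axis starting at 0. The oeNC bars reach 26.9 to 33.6 FPKM and the oeSTUB1 bars 14.1 to 17.3 FPKM, and the BMP7 segment is thin in all 3 oeSTUB1 libraries.

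Among the TGF-beta ligands proper, TGFB2 alone passed the test. TGFB2 was at 4.98, 4.87 and 4.54 FPKM in oeNC and at 11.7, 8.47 and 11.2 FPKM in oeSTUB1, with no overlap. It rose with a log2 fold change of 1.10 (SE 0.13, adjusted p = 0.0018, limma), 2.19-fold by group means, and the log2 fold change was 0.98 with a pseudocount of 1. TGFB1, the most abundant ligand gene of the family here, had a mean of 46.4 ± 2.77 FPKM in oeNC and of 46.4 ± 2.8 FPKM in oeSTUB1 (SD, n = 3 each), with a 95% confidence interval of the log2 fold change from -0.19 to 0.19. TGFB3 stayed between 0.383 and 0.502 FPKM in all 6 libraries. TGFB2 accounted for 9.05%, 9.69% and 9.14% of the summed FPKM of the 3 ligand genes in oeNC and for 20.9%, 14.5% and 19.6% in oeSTUB1. The growth and differentiation factors GDF11 and GDF15 overlapped between the groups, and GDF15 ranged from 24.9 to 52.5 FPKM within oeNC, where replicate 3 was high.

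Of the genes for latency and processing, BMP1 rose and LTBP4 fell. BMP1 encodes a metalloprotease that cleaves procollagens and the BMP antagonist chordin. It was at 11.6, 11.6 and 10.8 FPKM in oeNC and at 16.1, 13.9 and 15.1 FPKM in oeSTUB1, and rose by 0.40 on the log2 scale (SE 0.09, adjusted p = 0.021, limma). LTBP4, one of the latent TGF-beta binding proteins, was at 19.4, 20.4 and 17.2 FPKM against 14.3, 15 and 14.7 FPKM, and fell by 0.37 on the log2 scale (SE 0.09, adjusted p = 0.029, limma). The groups did not overlap for either gene, but both calls turned on single libraries. BMP1 passed without oeSTUB1 replicate 2 (adjusted p = 0.0023) and failed when any one of the other libraries was left out (0.06 to 0.092), and LTBP4 failed without oeNC replicate 1 or 2 (0.13 and 0.15) and without oeSTUB1 replicate 1 or 3 (0.078 and 0.072).

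The remaining latent binding proteins did not pass. LTBP1 was just outside the threshold, with 8.76, 8.99 and 8.35 FPKM against 6.88, 5.65 and 7.43 FPKM and a log2 fold change of -0.39 (SE 0.11, adjusted p = 0.062, limma). Without oeSTUB1 replicate 2 it passed (log2 fold change -0.28, adjusted p = 0.021), as it also did with quantile normalization, with a correction for gene length and with limma-voom. LTBP2 (log2 fold change 0.34, adjusted p = 0.17, limma) overlapped between the groups, and without oeSTUB1 replicate 2 its adjusted p was 0.0072. LTBP3 had a log2 fold change of 0.14 (adjusted p = 0.3, limma).

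Of the 10 receptors, ACVR1B alone passed the test, and 2 had an unadjusted p under 0.05. ACVR1B, a type I receptor for activins, was at 10.5, 11 and 11.4 FPKM in oeNC and at 7.99, 7.11 and 8.96 FPKM in oeSTUB1. It fell by 0.45 on the log2 scale (SE 0.10, adjusted p = 0.026, limma) with no overlap between groups. The call did not hold when any one oeNC library was left out (adjusted p = 0.085, 0.11 and 0.1) or without oeSTUB1 replicate 1 (0.067). TGFBR3, or betaglycan, a coreceptor that presents TGFB2 to the signalling receptors, was at 4.54, 5.52 and 6.23 FPKM against 4.02, 2.69 and 4.12 FPKM, with a log2 fold change of -0.59 (SE 0.19, adjusted p = 0.078, limma).

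The signalling receptors of TGF-beta overlapped between the groups. TGFBR2, the most abundant receptor gene at 29.4 ± 2.48 and 32.4 ± 5.68 FPKM (SD, n = 3 each), and TGFBR1, at 6.56 ± 0.747 and 7.73 ± 0.98 FPKM, had adjusted p = 0.56 and 0.27 from limma. The BMP type I receptors BMPR1A and BMPR1B had log2 fold changes of 0.09 and 0.07, with intervals from -0.14 to 0.32 and from -0.18 to 0.32. BMPR2 was at 10, 5.51 and 8.53 FPKM in oeSTUB1, so that replicate 2 lay below and replicate 1 above every oeNC library. ACVR1, the type I receptor named above with BMP6 and BMP7, had a log2 fold change of -0.13 (adjusted p = 0.44, limma). For the activin receptors ACVR2A and ACVR2B the adjusted p was 0.17 and 0.38 (limma).

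Of the SMAD genes, SMAD1 passed. SMAD1, a receptor-regulated SMAD of the BMP branch, was at 2.82, 2.95 and 2.77 FPKM in oeNC and at 3.97, 3.48 and 3.68 FPKM in oeSTUB1. It rose by 0.37 on the log2 scale (SE 0.10) and was the member just inside the threshold (adjusted p = 0.048, limma). The groups did not overlap, but the call was lost in 9 of the 16 alternatives, among them each fit that left out 1 library other than oeSTUB1 replicate 2 (adjusted p from 0.1 to 0.17), with median-ratio scaling and with a pseudocount of 1. Whether counting used strand was not stated, and SMAD1 shares 376 exon bases with SMAD1-AS1 on the opposite strand, which had a mean of 0.0485 FPKM in oeNC and 0 in oeSTUB1. Exons of TGFB1, GDF11, ACVR2A, SMAD5, SMURF1 and SMURF2 also overlap a gene of the table on the opposite strand, so their values carry the same uncertainty.

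SMAD3 was the most abundant SMAD, with 49.1 ± 2.5 FPKM in oeNC against 43.5 ± 4.95 FPKM in oeSTUB1 (SD, n = 3 each), with a 95% interval of the log2 fold change from -0.41 to 0.05. SMAD2 was at 3.24 ± 0.231 and 3.71 ± 0.157 FPKM, a level that depends on the 42081 bases of length behind its values. The common SMAD4 and the BMP branch SMAD5 had log2 fold changes of -0.07 and -0.06 (adjusted p = 0.65 and 0.79, limma). The inhibitory genes SMAD6 and SMAD7, which are themselves induced by the pathway, had -0.02 and 0.17 (adjusted p = 0.94 and 0.48, limma). Neither SMURF1 nor SMURF2, ubiquitin ligases that mark SMADs and receptors for degradation, passed, and neither did the corepressors SKI, SKIL and TGIF1. SMURF2 was the nearest of these to the threshold, with 7.59, 4.98 and 6.33 FPKM against 4.19, 4.84 and 4.47 FPKM (log2 fold change 0.46, SE 0.15, adjusted p = 0.091, limma), and without oeSTUB1 replicate 2 its adjusted p was 0.0055.

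Of the remaining antagonists, FSTL1 passed. FSTL1, a secreted glycoprotein of the follistatin family, was at 16.1, 15.5 and 13.7 FPKM in oeNC and at 21.3, 20 and 19 FPKM in oeSTUB1, and rose by 0.41 on the log2 scale (SE 0.09, adjusted p = 0.024, limma). Its groups did not overlap, and its adjusted p exceeded 0.05 when any one oeNC library was left out (0.061, 0.086 and 0.092), without oeSTUB1 replicate 1 (0.071) and with eBayes without a trend. FSTL3, which like follistatin binds activins, was far more abundant than FST, at 36.1 ± 1.46 and 46.2 ± 9.95 FPKM (SD, n = 3 each). Its log2 fold change was 0.34 (adjusted p = 0.16, limma). NOG, encoding the BMP antagonist noggin, was at 0.91, 0.995 and 0.367 FPKM in oeSTUB1 against 0.452 to 0.557 FPKM in oeNC, and without the low replicate 3 of oeSTUB1 its adjusted p went from 0.47 to 0.043. BAMBI, a decoy receptor without a kinase, had a log2 fold change of -0.37 (adjusted p = 0.14, limma), and all its oeSTUB1 values lay below the oeNC values.

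**Figure D3:**
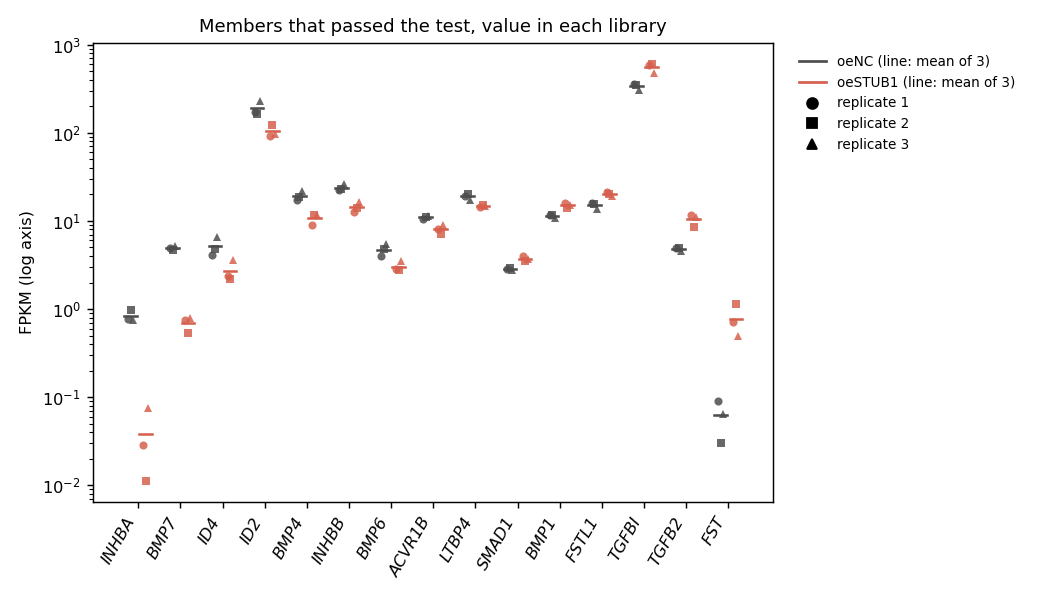
FPKM on a log axis of the 15 members with an adjusted p under 0.05, in each of the 3 oeNC and 3 oeSTUB1 libraries, ordered by log2 fold change, with lines at the group means and marker shapes for the replicates. The groups do not overlap in any of the 15 genes, which were selected by the test on these same libraries, so this adds no support. Of all genes tested, 38.8% show no overlap. The gaps are widest for INHBA, BMP7 and FST, and INHBA and FST reached the filter through their higher group alone.

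Among the early targets, TGFBI rose and ID2 and ID4 fell. TGFBI, a secreted matrix protein named for its induction by TGF-beta and the most abundant member here, was at 355, 347 and 302 FPKM in oeNC and at 594, 609 and 471 FPKM in oeSTUB1. It rose by 0.73 on the log2 scale (SE 0.13, adjusted p = 0.009, limma), 1.67-fold by group means, with no overlap, although without oeNC replicate 3 the adjusted p was 0.052. The 4 ID genes encode helix-loop-helix proteins that lack a DNA-binding region and block partner factors. ID2 was at 172, 164 and 231 FPKM in oeNC and at 92.2, 123 and 96.2 FPKM in oeSTUB1, and fell by 0.86 on the log2 scale (SE 0.16, adjusted p = 0.012, limma).

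ID4 was much less abundant, at 4.06, 4.77 and 6.64 FPKM against 2.38, 2.22 and 3.59 FPKM. ID4 fell by 0.89 on the log2 scale (SE 0.23, adjusted p = 0.038, limma) without overlap, a call that was lost when any one oeNC library was left out (0.052, 0.1 and 0.12), without oeSTUB1 replicate 1 (0.1), with no filter and with eBayes without a trend. ID1 was at 268, 258 and 311 FPKM against 175, 256 and 225 FPKM, with a log2 fold change of -0.36 that did not pass (SE 0.15, adjusted p = 0.15, limma). Leaving out oeSTUB1 replicate 2 gave -0.49 (adjusted p = 0.023). ID3, at 318 ± 59.4 and 283 ± 61.3 FPKM (SD, n = 3 each), overlapped between the groups. The summed level of the 4 ID genes ranged from 709 to 937 FPKM in oeNC and from 509 to 734 FPKM in oeSTUB1 and so overlapped, while the share of ID2 in that sum did not, at 23.8% ± 0.822 and 17.2% ± 0.841 (SD, n = 3 each). ID2 shares 38 exon bases with ID2-AS1 on the opposite strand, which was at 2.4 and 1.62 FPKM (log2 fold change -0.54, adjusted p = 0.06, limma).

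Other genes of the pathway, 84 in a list beside the members, were examined in the same fit. Of the 55 that were tested 19 (34.5%) passed, 17 higher and 2 lower, against the 13.6% of all genes, and 12 passed without oeNC replicate 1 or 2. Here too the list was chosen with earlier results of these data known, so the share is a description. Among 13 further targets of TGF-beta 7 rose and 0 fell in limma, where 7.01% of all genes tested rose and 6.59% fell. The log2 fold change was negative in 3 of the 13, KLF10, SNAI1 and FN1. KLF10 was at 23.6, 21.6 and 21.7 FPKM in oeSTUB1, below all oeNC values (25.8, 24.8 and 43 FPKM). Its log2 fold change was -0.44 (adjusted p = 0.18, limma), and that of SNAI1 was -0.29 (adjusted p = 0.21, limma). FN1, encoding fibronectin, had a negative log2 fold change of -0.67 with an unadjusted p under 0.05 and an adjusted p = 0.13, and was called lower with the length correction and without oeSTUB1 replicate 2. SNAI2, a repressor of epithelial genes, rose by 2.00 on the log2 scale, from 3, 2 and 4 fragments in oeNC to 38, 39 and 25 in oeSTUB1. The oeNC mean of SNAI2, 0.0387 FPKM, was under the filter of 0.1 FPKM, so SNAI2 entered the test through its oeSTUB1 values alone. At such low values the size of its change depended on the processing, with log2 fold changes from 0.49 to 3.37 over the 15 alternatives that tested it, all of which called it, and a log2 ratio of the group means of 3.57. TAGLN, an actin-binding protein, rose by 1.12 on the log2 scale. PMEPA1, a TGF-beta target that holds back SMAD2 and SMAD3, was at 13, 12.6 and 7.54 FPKM against 57.7, 59.4 and 34.3 FPKM (log2 fold change 2.18, adjusted p = 0.002, limma).

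Among 13 further antagonists and activators 7 rose and 0 fell in limma, where 7.01% of all genes tested rose and 6.59% fell. ITGAV, an integrin subunit that activates latent TGF-beta, had an unadjusted p under 0.05 for a log2 fold change of -0.37 (adjusted p = 0.082), and was called lower in the same 2 alternatives. The integrin subunits ITGB6 and ITGB8 of the same list went the other way. Their log2 fold changes were 0.98 and 0.88 (adjusted p = 0.057 and 0.055, limma), and each was called higher in some alternatives. The genes that rose included FBN2 (3.20 on the log2 scale) and FBN1 (1.01), fibrillins of the microfibrils that hold latent TGF-beta and BMPs, and BMPER (1.78), a secreted modulator of BMPs. In the BMP branch, SMAD9 was at 1.32, 1.55 and 1.85 FPKM in oeNC and at 0.104, 0.0949 and 0.273 FPKM in oeSTUB1, and fell by 2.76 on the log2 scale (SE 0.28, adjusted p = 0.00084, limma). The ligand gene GDF7 had a log2 fold change of -1.85 (adjusted p = 0.0015, limma). Of 5 further BMP targets, ATOH8 (1.09 on the log2 scale) and MSX2 (0.98) rose and 0 fell in limma, against the same shares over all genes. HES1 had an unadjusted p under 0.05 for a log2 fold change of -0.74 (adjusted p = 0.12) and was called lower with the length correction. Calls of 3 named genes turned on single libraries. FBN1 no longer passed when any one library other than oeSTUB1 replicate 2 was left out (adjusted p from 0.078 to 0.11), TAGLN without any one oeNC library or oeSTUB1 replicate 1 (0.08 to 0.12), and ATOH8 without oeNC replicate 1 or 2 or oeSTUB1 replicate 3 (0.11 to 0.16).

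**Figure D4:**
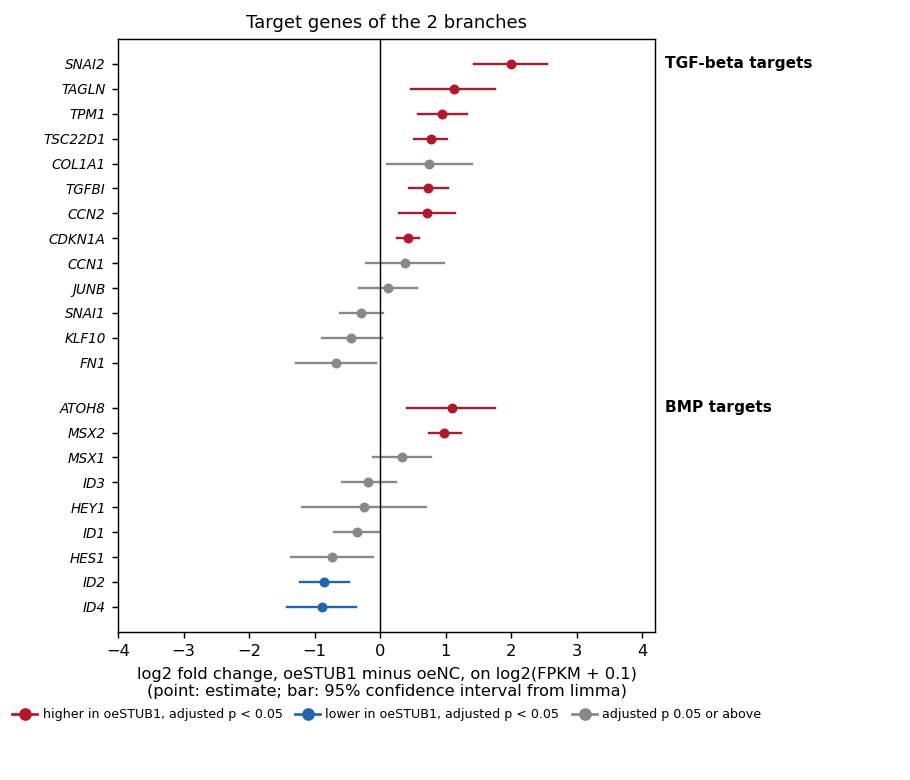
Log2 fold change (oeSTUB1 minus oeNC, on log2(FPKM + 0.1)) with 95% confidence intervals from limma for target genes of the TGF-beta and BMP branches, members and reported further genes together. TGF-beta targets with an adjusted p under 0.05 all lie to the right of 0, while FN1, KLF10 and SNAI1, which did not pass, lie to the left. BMP targets with an adjusted p under 0.05 lie on both sides, ATOH8 and MSX2 to the right and ID2 and ID4 to the left.

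Chromosome position moved with some of these values. On chromosome 2, log2 fold changes had a median of -0.21 over 1031 tested genes and were below 0 in 797. The 6 members placed there, ID2, INHBB, LTBP1, ACVR1, ACVR2A and BMPR2, all had negative log2 fold changes, with a median of -0.35. Of the further genes named above, GDF7, FN1 and ITGAV, with negative log2 fold changes, and ATOH8, which rose, also lie on chromosome 2. The 43 members elsewhere split into 22 below and 21 above 0, with a median of -0.02. Relative to the chromosome's median, the log2 difference was -0.65 for ID2 and -0.52 for INHBB, but 0.08 for ACVR1 and 0.09 for BMPR2. TGFBR1, at 0.23, lies on chromosome 9, where the median was 0.16 over 604 genes. Chromosome Y, which holds no member, had the largest shift of any chromosome, with a median of 2.07 over 14 tested genes, 13 of them above 0 and 11 called, all higher in oeSTUB1, so that the transduced populations differed there too. The part of chromosome position and of this difference between the populations in the members' values was not tested. INHBA, BMP7, TGFB2 and FST lie on other chromosomes, whose medians were between 0.03 and 0.06.

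Of the 15 members that passed, 7 were called under every alternative that tested them, TGFB2, INHBA, INHBB, BMP4, BMP7, FST and ID2, and 0 of the 15 changed direction in any alternative. INHBA and FST were below the stricter filter at a mean of 1 FPKM and so were not tested there. They reached the main filter through their higher group alone, INHBA through oeNC and FST through oeSTUB1. The 8 members BMP2, LTBP1, LTBP2, TGFBR3, SMURF2, BAMBI, NOG and ID1 did not pass but were called in at least 1 alternative.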

How the data were processed

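RNA-seq was available for 6 libraries of TFK1 cells, 3 oeNC and 3 oeSTUB1, grouped by their labels and matched to the table's columns by name. The authors deposited FPKM values for 23569 genes by symbol. The submitters' processing notes name fastp 0.20.1, HISAT2 2.1.0, HTSeq 0.11.2, R 3.2.0, DESeq2 1.22.2 and the build GRCh38.p13, without stating the role of each or whether counting used strand. Total RNA was extracted with TRIzol. Whole fragments were recovered from the steps of the FPKM values for 100.0% of genes, up to a possible common divisor per gene.

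The test was limma's moderated fit (limma 3.58.1 under R 4.3.3, eBayes with a trend, two-sided). It used log2(FPKM + 0.1) of every gene whose mean FPKM reached 0.1, 15353 in number, and all their p-values were adjusted together by Benjamini-Hochberg. The study names Student's test for independent groups, and the submitters list DESeq2, a tool for counts. The values are FPKM, which are not counts, so a moderated fit on the log scale was used and no count model. Fold changes on this scale understate those of low genes. Genes with an adjusted p under 0.05 were called, with an absolute log2 fold change over 1 as a second rule. The 50 members and the other gene lists were chosen with earlier results of these data known. All members were accounted for, those called were given library by library, and of the other pathway genes those that met both rules were named, apart from some that are not reported here. ITGAV, ITGB6, ITGB8, FN1, KLF10, SNAI1, HES1 and MSX2 were named after their values were seen.

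The fit was repeated with a pseudocount of 1 or 0.01, with the filter dropped or raised to 1 FPKM, with quantile normalization or median-ratio scaling, with a replicate block, without the eBayes trend, with each library left out, and with limma-voom on recovered fragments, which called 2164 genes. A lowess length correction per library and the log2 ratio of group means were added after the data were seen. The fit was tested on simulated data. Gene positions are those of GENCODE release 29, chromosomes and promoters those of RefSeq (GRCh38.p14). A chromosome was found for 96.7% of the 15353 tested genes and a promoter for 11980 of them. Python 3.11.15 with numpy 2.4.6, pandas 2.3.3 and matplotlib 3.10.9 was used for the other steps.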

Additional observations from a re-analysis of the deposited data

How the results depend on the processing

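The count of 15 members called ranged from 8 to 19 when 1 library was left out. It was lowest without oeNC replicate 2, oeNC replicate 3 or oeSTUB1 replicate 1 (8 each), 9 without oeNC replicate 1, and highest without oeSTUB1 replicate 2 (19). Members higher ranged from 2 to 8 and members lower from 5 to 11 in these fits, other pathway genes called from 12 to 26, and all genes called from 927 to 4118, against 2088 with all libraries. The length correction, which was chosen after seeing the data, called 3322 genes and 21 members. The 4 members beyond a log2 fold change of 1 became 2 with a filter at a mean of 1 FPKM, where INHBA and FST are not tested, and 1 with a pseudocount of 1. The log2 fold change of STUB1 stayed between 0.93 and 1.08. The cause of these shifts was not tested other than for the filter.

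Replicate numbers gave no pairing, since deviations of same-numbered libraries correlated at -0.05, -0.05 and 0.06. With a replicate block 1488 genes and 12 members were called, without BMP1, SMAD1 and LTBP4, and no other call of a member changed.

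Direction changed in 10 members, none of them called, and the cause was not tested. TGFB1 went from 0.00 to -0.05 with the length correction, -0.02 with median-ratio scaling and -0.09 with quantile normalization. TGFB3 went to 0.00 with quantile normalization, and with the length correction SMAD4 and SMAD5 were at 0.00 and SMAD6 at 0.05. Over the fits that left out 1 library, log2 fold changes ranged from -0.05 to 0.05 for TGFB1, from -0.17 to 0.01 for TGFB3, from -0.51 to 0.03 for GDF15, from -0.01 to 0.17 for BMPR1B, from -0.30 to 0.12 for BMPR2, from -0.13 to 0.07 for SMAD5, from -0.07 to 0.08 for SMAD6, from -0.02 to 0.16 for SKI and from -0.06 to 0.04 for TGIF1. Low fragment numbers limit INHBA, FST, INHBE, GREM1, SNAI2 and GDF7. Of these, INHBA and GDF7 reached the filter through oeNC alone, and FST and SNAI2 through oeSTUB1 alone.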

Other observations

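The balance of the receptor-regulated SMAD transcripts of the TGF-beta branch did not overlap between the groups, and this ratio was not tested. The level of SMAD3 relative to SMAD2 was 15.1, 15.7 and 14.7 in oeNC and 12.1, 10.6 and 12.5 in oeSTUB1, on FPKM values. Neither gene passed the test by itself, and 38.8% of all genes tested showed no overlap of the groups. The size of the ratio depends on the lengths behind the values, 7289 bases for SMAD3 and 42081 for SMAD2. BMP2 made up 2.99%, 3.37% and 2.95% of the summed FPKM of BMP2, BMP4, BMP6 and BMP7 in oeNC and 11%, 8.36% and 6.83% in oeSTUB1, again without overlap. The sum itself was lower in oeSTUB1, at 15.9 ± 1.62 FPKM against 29.8 ± 3.4 FPKM in the controls (SD, n = 3 each), whereas BMP2 was 1.48-fold higher and did not pass the test (adjusted p = 0.068, limma), so the lower sum made up more of the change in share than BMP2 did. Of the members in the promoter table, 37.2% held CAGAC, the letters of a SMAD-binding element, within the 250 bases before the start on either strand, where 36.2% of all 11980 promoters did. GGCGCC, a sequence bound by BMP branch SMADs, was found in 32.6% of the members and 25.4% of all promoters. The promoter of INHBA held neither, that of TGFB2 held CAGAC at 2 places, that of INHBB held GGCGCC at 2 places, and that of BMP4 held each of them at 1 place. These matches are a description of the letters and were not tested.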
